A study of Danio rerio with 9 samples.

Results

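The comparison of 1 mM metronidazole with vehicle was read in 6 of the 9 libraries of a zebrafish liver study, 3 per group, and was chosen by treatment label. Both groups were livers microdissected from larvae of wild-type genotype, which carry no nitroreductase transgene by their labels, after 24 h in vehicle or in 1 mM metronidazole. The other 3 libraries came from larvae given 10 mM metronidazole and served here to estimate the spread between libraries and as a side comparison. The labels give neither the age of the larvae, nor the number of livers behind a library, nor whether replicates were separate clutches, and p-values therefore reflect library-to-library spread alone, which may be technical. Of 32520 genes in the table of read counts, 16766 had enough counts to be tested. All of them were tested in 1 fit, once with all libraries and once without 1 mM replicate 3, a library that stands apart from the others.

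Metronidazole, a nitroimidazole, becomes toxic when a bacterial nitroreductase reduces it, and zebrafish lines that express the enzyme in chosen cells use this to ablate them. Wild-type larvae show what the drug does without the enzyme. The liver of a larva is still growing, and its dividing cells load the MCM helicase at replication origins, copy DNA and chromatin in S phase, and then condense and separate chromosomes in mitosis through condensin, the kinetochore and the spindle. The genes of these steps are switched on together in each cycle, largely by E2F factors in S phase and by MYBL2 and FOXM1 towards mitosis.

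In the livers given 1 mM metronidazole, genes of DNA replication and mitosis were higher than in vehicle, and few genes were lower. Of the unfolded protein response list 6 of 44 genes were called higher, and 0 when any 1 vehicle library or 1 mM replicate 2 was left out. The edgeR quasi-likelihood test with Benjamini-Hochberg adjustment over all tested genes called 149 genes higher, 0.889% of the genes tested, and 16 lower, 0.0954%, at an adjusted p under 0.05, together 0.984%. In all 165 called genes the 3 libraries at 1 mM lay wholly above or wholly below the 3 vehicle libraries, as they did in 17.7% of all tested genes. Remarks below that the groups of a called gene lay apart therefore go with its call and are no further support. Without 1 mM replicate 3 the counts were 149 higher (0.889%) and 31 lower (0.185%), together 1.07%. DESeq2 called 419 higher (2.5%) and 87 lower (0.519%), and limma voom with sample quality weights 386 higher (2.3%) and 102 lower (0.608%). The 2 fits shared 109 of the higher genes, 73.2% of either list, and 14 of the lower genes, 87.5% of the first list and 45.2% of the second. The median log2 change of all tested genes was 0.01 with all libraries, and 50.9% of genes had a positive change.

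The number of genes past the threshold rested on the vehicle libraries more than on 1 mM replicate 3. Without vehicle replicate 1, 16 genes were called higher and 2 lower. The counts were 18 and 2 without vehicle replicate 2, 47 and 4 without vehicle replicate 3, and 50 and 1 without 1 mM replicate 2. Without 1 mM replicate 1 they were 182 and 27.

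Library 1 mM replicate 3 differed from the other 5 in many genes. Total counts were 37.2, 38.3 and 39.3 M in vehicle and 34.1, 33.6 and 36.0 M at 1 mM. Its TMM factor, which scales a library to the others, was 0.877 where the other 8 libraries lay between 0.963 and 1.11. On the first principal component of the 6 libraries, 35.7% of the variance, it stood at 76.5 and the others between -27.6 and 6.48. In it, 2266 genes lay more than 1 log2 unit from the mean of the other 5, against 946 to 1305 genes in each of those.

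**Figure D1:**
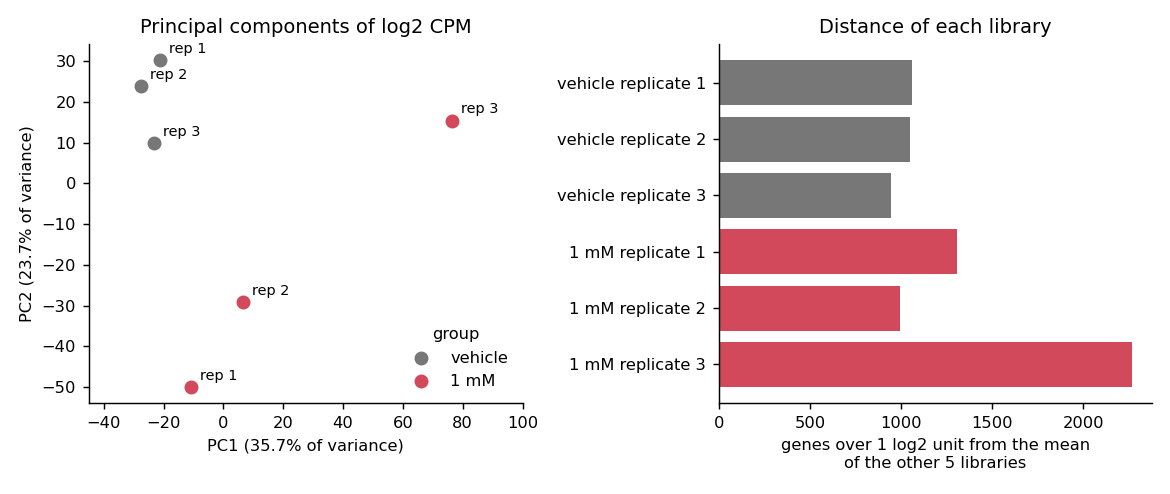
Left, the 3 vehicle and 3 of 1 mM libraries on the first 2 principal components of log2 CPM (percent of variance on each axis). Right, bars give for each library the number of genes more than 1 log2 unit from the mean of the other 5; 1 mM replicate 3 has 2266 and stands alone on the first component at 76.5.

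The genes that set this library apart were of several kinds. The ribosomal protein gene rpl11 (ENSDARG00000043509) was at 2025 CPM (counts scaled to a common library total, with TMM factors) in 1 mM replicate 3 and between 403 and 718 CPM in the other 5. The copper chaperone gene atox1 (ENSDARG00000087693) was at 259 CPM there and at 59.3 to 86.0 CPM elsewhere. The lectin gene itln3 was at 268 CPM against 23.2 to 60.9 CPM. Lower in it were the dynein heavy chain gene DYNC1H1, at 7.90 against 21.0 to 29.3 CPM, and the tensin gene TNS1, at 3.65 against 9.71 to 15.2 CPM. The counts of 76 cytosolic ribosomal protein genes summed to 81067 CPM in 1 mM replicate 3, to 33860 and 42368 CPM in the other libraries at 1 mM, and to 49285 to 56444 CPM in vehicle. The median log2 change of those genes was -0.02 with all libraries and -0.48 without 1 mM replicate 3. None of them passed the edgeR test with all libraries, 0 had an unadjusted p under 0.05, and DESeq2 and limma voom called 0 as well. With that library left out, 0 of the 76 had a positive log2 change and 74 had an unadjusted p under 0.05, against 13.8% of all tested genes, and the edgeR test called 1, rpl38, lower (log2 -0.74, adjusted p = 0.0426).

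Genes of DNA replication and S phase were the clearest group. Of 59 tested members of that list, 26 were called higher and 0 lower, and all 59 had a positive log2 change, with a median of 1.38. In 51 the 3 libraries at 1 mM lay above all 3 vehicle libraries, against 9.66% of all tested genes. Their summed level was 199, 222 and 264 CPM in vehicle and 520, 460 and 551 CPM at 1 mM, so the groups did not overlap. The count was 24 without 1 mM replicate 3, with a median of 1.33. DESeq2 called 42 and limma voom with sample weights called 38. The edgeR count was 4, 6 and 13 without vehicle replicates 1, 2 and 3, and 22 and 13 without 1 mM replicates 1 and 2.

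Mitosis genes followed the same pattern. Of 57 tested members, 18 were called higher and 0 lower, 56 had a positive change, and the median log2 change was 1.69. Their summed level was 50.7, 51.9 and 59.9 CPM in vehicle and 173, 143 and 180 CPM at 1 mM. In 48 members the 1 mM libraries lay above every vehicle library, against 9.66% of all tested genes. Leaving out 1 mM replicate 3, 14 were called, with a median of 1.59, and DESeq2 called 37 and limma voom 30 with all libraries. The edgeR count was 4, 4 and 7 without vehicle replicates 1, 2 and 3, and 12 and 9 without 1 mM replicates 1 and 2. Together the replication and mitosis lists held 44 of the 149 genes called higher, 29.5%, and 0 of the 16 called lower.

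**Figure D2:**
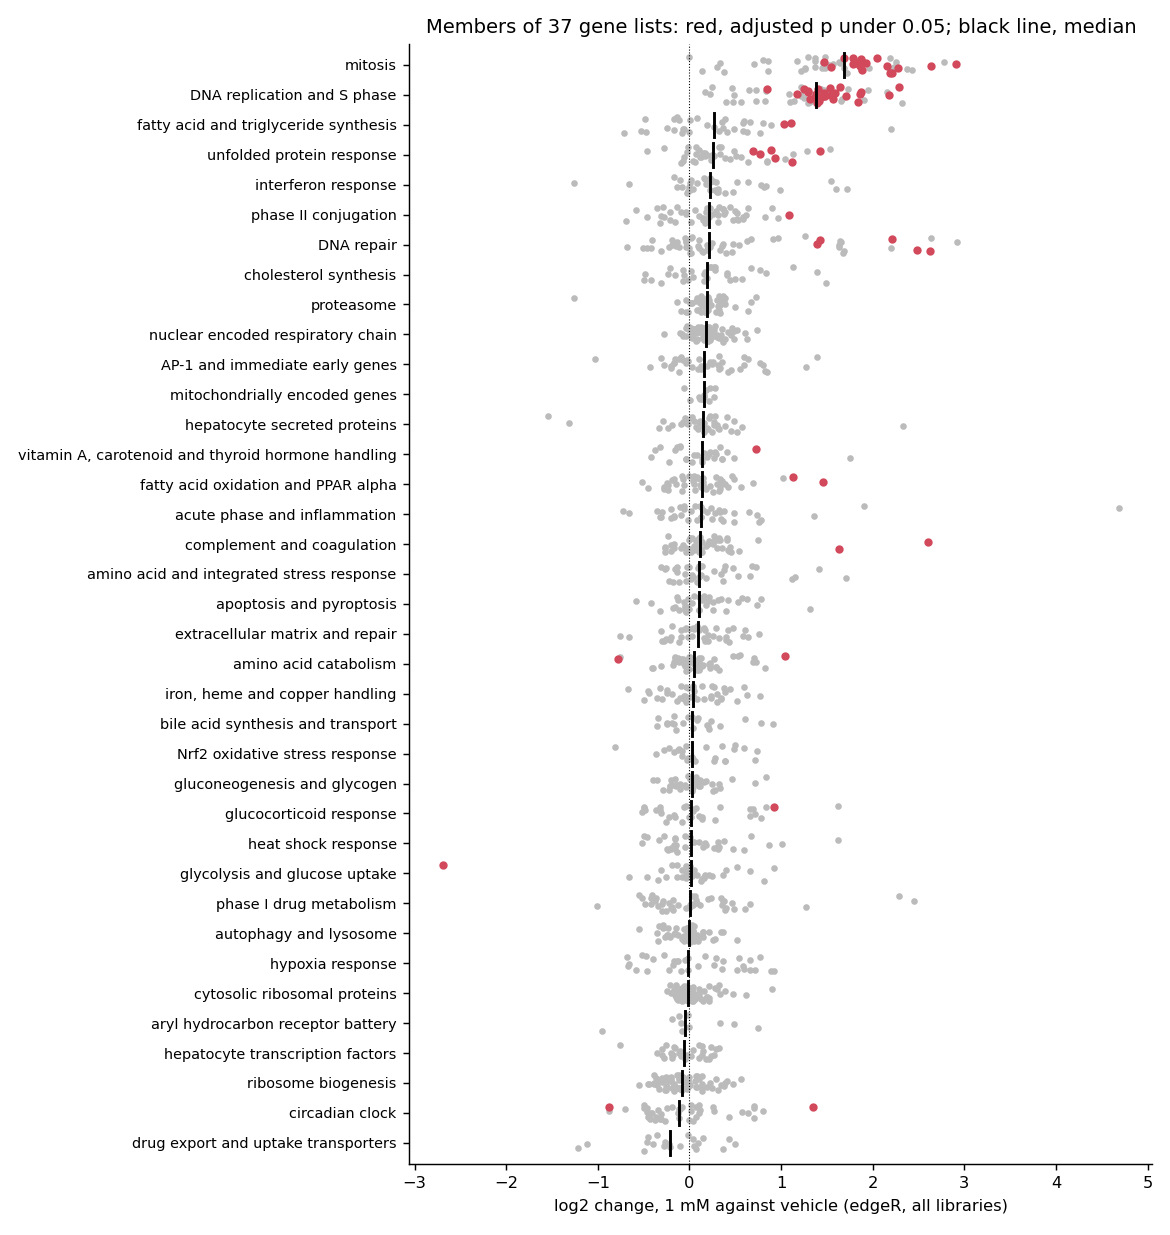
Each point is the log2 change of 1 tested gene at 1 mM against vehicle (horizontal axis), in 37 gene lists (vertical axis, ordered by median). Red points passed the edgeR test at an adjusted p under 0.05, grey points did not, and black lines are medians; the mitosis and the replication list have the highest medians, 1.69 and 1.38.

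In the following the cell cycle genes are grouped by role, a grouping made after the values were seen, which also takes in genes of neither list. Genes named for a role were likewise chosen after their values were seen, apart from mcm5, pold1, chaf1a, pcna, rrm2, cdk1, mki67, ncapg, smc4, nsl1, CENPI, mis12, knl1, ercc6l and the DNA repair genes.

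Origin licensing and firing came first. The MCM2 to MCM7 proteins form the ring that unwinds DNA at replication forks, and all 6 genes were called higher. The gene mcm5 (ENSDARG00000019507) was at 6.0, 5.96 and 7.32 CPM in vehicle and at 16.6, 15.8 and 17.5 CPM at 1 mM. The 3 libraries at 1 mM lay close together, each above every vehicle library. Its mean was 6.43 ± 0.775 against 16.6 ± 0.878 CPM (SD, n = 3 each), a log2 change of 1.37 (SE 0.15, edgeR adjusted p = 0.0019), and it stayed past the threshold under all 17 alternative settings.

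The gene mcm4 (ENSDARG00000040041) was at 5.04, 6.87 and 9.41 CPM in vehicle and at 24.8, 22.6 and 22.2 CPM at 1 mM (log2 1.70, SE 0.26, edgeR adjusted p = 0.0137). The groups were well apart, and its lowest treated library was 1 mM replicate 3. The other 4 were mcm2 (log2 1.43), mcm3 (1.41), mcm6 (1.41) and mcm7 (0.85), with edgeR adjusted p between 0.0116 and 0.0226. Without vehicle replicate 1 all of the MCM genes but mcm5 missed the threshold, and without vehicle replicate 2 all but mcm5 and mcm7 did. The mcm7 call was also lost without vehicle replicate 3, and those of mcm2 and mcm3 without 1 mM replicate 2. The adjusted p was at most 0.131 in any setting. The origin recognition genes orc4 (log2 1.94) and orc6 (2.28) and gins1 (1.38), a part of the helicase complex, were also called. In all, 9 of 19 tested genes of this role were higher, and 7 without 1 mM replicate 3. The licensing factors cdc6 (log2 1.21, adjusted p = 0.2) and CDT1 (1.22, adjusted p = 0.298) did not pass.

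At the fork, 10 of 20 tested genes were called higher. Without 1 mM replicate 3 the count was again 10, with fen1 lost (adjusted p = 0.0774) and the polymerase subunit gene pola1 gained (adjusted p = 0.0311, 0.0662 with all libraries). The sliding clamp gene pcna (ENSDARG00000054155), which tethers polymerases to DNA, was at 12.2, 15 and 16 CPM in vehicle and at 34, 34.3 and 52.2 CPM at 1 mM. The highest value was that of 1 mM replicate 3, and the groups did not overlap without it either. The log2 change was 1.48 (SE 0.20, edgeR adjusted p = 0.00506) with all libraries and 1.24 (adjusted p = 0.00296) without it, and without vehicle replicate 1 the adjusted p was 0.0532. The catalytic subunit of DNA polymerase delta, pold1 (ENSDARG00000027689), was at 1.86, 2.37 and 1.99 CPM in vehicle and at 7.88, 7.64 and 7.11 CPM at 1 mM (log2 1.86, SE 0.21, edgeR adjusted p = 0.00201). It kept its call in all 17 settings. The primase genes prim1 (log2 1.64) and prim2 (1.25), the primer polymerase subunit pola2 (1.87), the clamp loader subunit rfc4 (1.31), the single-strand binding genes rpa1 (1.18) and rpa2 (1.47), the flap nuclease fen1 (1.29) and the ligase lig1 (1.29) were the other called genes. The clamp loader gene rfc3 was at 5.29, 5.36 and 5.28 CPM in vehicle and 5.21, 5.29 and 8.38 CPM at 1 mM, and its log2 change was 0.24 (adjusted p = 0.754), or -0.02 without 1 mM replicate 3.

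Nucleotide supply followed. Ribonucleotide reductase makes deoxynucleotides, and its small subunit gene rrm2 (ENSDARG00000078069) was at 1.64, 2.71 and 2.66 CPM in vehicle and at 12, 11.4 and 15.9 CPM at 1 mM. No library at 1 mM came near the vehicle range. The log2 change was 2.48 (SE 0.28, edgeR adjusted p = 0.00201), and 2.32 without 1 mM replicate 3. The symbol rrm2 is carried by a second Ensembl gene, ENSDARG00000020711, which was at 0.519 ± 0.118 CPM in vehicle and 1.69 ± 0.99 CPM at 1 mM (adjusted p = 0.149), and reads that both could take are not resolved here. The large subunit rrm1 rose from 6.36 ± 1.58 to 18.6 ± 2.21 CPM (log2 1.54, SE 0.19, edgeR adjusted p = 0.00273) and the thymidylate synthase tyms from 2.1 ± 0.606 to 6.34 ± 1.02 CPM (log2 1.59, SE 0.25, edgeR adjusted p = 0.0147). The deoxycytidine kinase dck (log2 2.1) and the nucleoside transporter slc29a2 (2.08) made 4 of 7 genes called, and 3 without 1 mM replicate 3, where dck missed (adjusted p = 0.0528).

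Genes that rebuild and mark chromatin behind the fork were called in 4 of 9 cases. The histone chaperone gene chaf1a (ENSDARG00000062152), a subunit of chromatin assembly factor 1, was at 4.68, 6.30 and 6.80 CPM in vehicle and at 18.1, 15.5 and 19.1 CPM at 1 mM (log2 1.57, SE 0.19, edgeR adjusted p = 0.0026). Its treated libraries all lay above the vehicle range and its call held in all 17 settings. The partner chaf1b (log2 1.83), the AAA ATPase gene ATAD2 (1.54) and uhrf1 (1.39), which recruits the maintenance DNA methyltransferase in vertebrates, were the others. The methyltransferase dnmt1 itself was at 3.51, 5.41 and 6.82 CPM in vehicle and at 14.9, 11.9 and 7.93 CPM at 1 mM. It missed the threshold with all libraries (log2 1.14, adjusted p = 0.0932) and passed without 1 mM replicate 3, its lowest treated library (1.35, adjusted p = 0.0317).

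**Figure D3:**
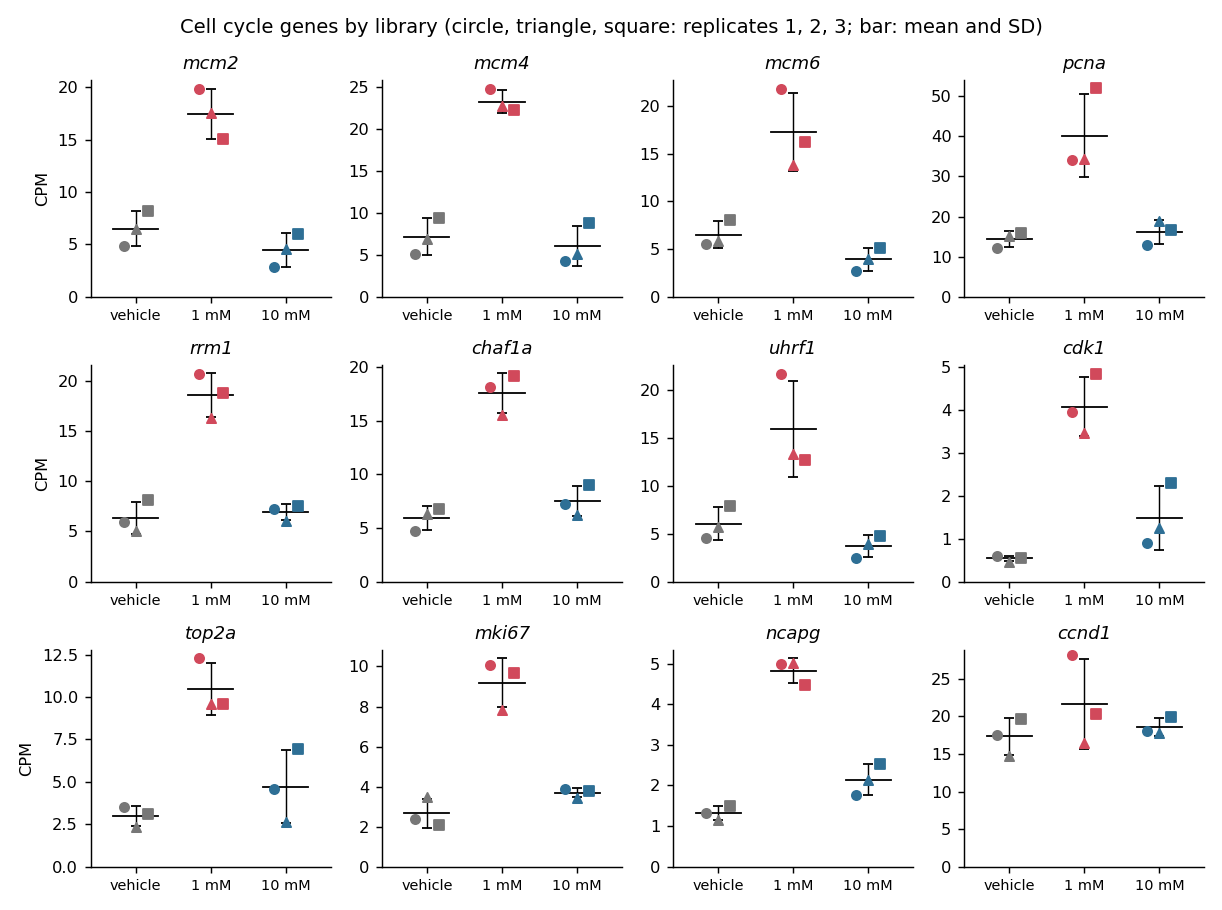
CPM (vertical axes, from 0) of 12 cell cycle genes in every vehicle, 1 mM and 10 mM library; symbols mark replicate numbers and bars the mean and SD. For 11 genes, picked from those called higher, the 1 mM libraries lie by that choice above all vehicle libraries. The last panel, ccnd1, overlaps.

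Genes that start a cycle and those that hold it back had a median log2 change of 0.32. Of 22 tested genes of this role 3 passed, namely cyclin E2 (ccne2, log2 1.47), its kinase cdk2 (1.51) and the S phase repressor e2f8 (2.17), and without 1 mM replicate 3 only e2f8 did. The growth-responsive cyclin D1 gene ccnd1 (ENSDARG00000101637) was at 17.6, 14.8 and 19.7 CPM in vehicle and at 28.1, 16.4 and 20.3 CPM at 1 mM. The groups overlapped and the test missed (log2 0.32, SE 0.18, adjusted p = 0.558). The kinase gene cdk4, its partner, was at 13.3 ± 2.26 and 10.6 ± 1.57 CPM (log2 -0.33, adjusted p = 0.469). The cell cycle inhibitor gene cdkn1a was at 4.1 ± 0.607 and 5.70 ± 0.696 CPM (log2 0.47, adjusted p = 0.317). The Myc gene mycb ranged from 47.4 to 197 CPM among the vehicle libraries alone. The regulators of mitotic genes mybl2b (log2 1.90, adjusted p = 0.0748) and foxm1 (1.36, adjusted p = 0.336) lay above the vehicle range in all treated libraries and missed the threshold.

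The mitotic kinase cdk1 (ENSDARG00000087554), whose activity drives entry into mitosis, was at 0.602, 0.468 and 0.548 CPM in vehicle and at 3.94, 3.45 and 4.82 CPM at 1 mM. The groups were far apart, with a log2 change of 2.91 (SE 0.36, edgeR adjusted p = 0.0028), and the call held in all 16 settings that tested it. The proliferation marker mki67 (ENSDARG00000091150), which coats mitotic chromosomes, was at 2.41, 3.49 and 2.09 CPM in vehicle and at 10.1, 7.81 and 9.68 CPM at 1 mM (log2 1.79, SE 0.22, edgeR adjusted p = 0.00273). The groups were again apart. Its call also held in all 17 settings. Of 10 tested genes of mitotic entry 2 were called and 8 lay above the vehicle range in every treated library (9.66% of all tested genes). The other called gene was wee1, an inhibitor of CDK1 (log2 1.14, adjusted p = 0.0356), which missed without 1 mM replicate 3 (adjusted p = 0.0548). The cyclin A2 gene ccna2, whose protein pairs with CDK1, was at 0.383, 0.833 and 0.747 CPM in vehicle and at 2.33, 1.64 and 1.46 CPM at 1 mM, with no overlap, and missed the threshold (log2 1.46, adjusted p = 0.133). Cyclin B1, ccnb1, was at 0.712, 0.468 and 0.349 CPM in vehicle and at 1.64, 0.623 and 3.02 CPM at 1 mM, which overlapped (adjusted p = 0.222).

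At the kinetochore, the protein plate that ties chromosomes to the spindle, 9 of 16 tested genes were called higher, 4 without 1 mM replicate 3. All 16 lay above the vehicle range in every treated library, as did 9.66% of all tested genes. The largest log2 rise among the genes named for their change was that of nsl1 (ENSDARG00000024471), a MIS12 complex subunit, at 0.0548, 0.208 and 0.0498 CPM in vehicle and 0.899, 0.934 and 1.59 CPM at 1 mM (log2 3.41, SE 0.65, edgeR adjusted p = 0.03). Its vehicle level rests on few reads and lay under what the count filter asks for. The gene was therefore tested only through its level in the metronidazole libraries, and the size of its change is uncertain. It missed without 1 mM replicate 3 (adjusted p = 0.0642). The checkpoint gene kntc1 was more abundant, at 1.15, 1.17 and 1.94 CPM in vehicle and 5.37, 6.23 and 4.73 CPM at 1 mM (log2 1.93, SE 0.26, edgeR adjusted p = 0.00548). Called beside them were mis12 (log2 2.6), CENPI (2.64), knl1 (2.21), nuf2 (2.18), the checkpoint kinases ttk (2.16) and bub1 (1.86), and the motor gene cenpe (1.79). Vehicle levels were 0.274, 0.208 and 0.598 CPM for mis12 and 0.164, 0.104 and 0.299 CPM for CENPI. Both thus had vehicle libraries under what the count filter asks for and were tested through the metronidazole libraries. Without 1 mM replicate 3 both missed (edgeR adjusted p = 0.0844 for mis12 and 0.075 for CENPI). The DNA helicase gene ercc6l, which acts at the centromere in mitosis, was at 0.712, 1.01 and 0.896 CPM in vehicle and 6.14, 3.23 and 5.68 CPM at 1 mM (log2 2.51, SE 0.46, edgeR adjusted p = 0.0236), and missed when any 1 vehicle library was left out.

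Condensin, which folds chromosomes for mitosis, had the highest share of called genes among these roles, and with topoisomerase II alpha 6 of 7 tested genes passed, with or without 1 mM replicate 3. The subunit gene ncapg (ENSDARG00000070109) was at 1.31, 1.14 and 1.49 CPM in vehicle and at 5.0, 5.01 and 4.47 CPM at 1 mM (log2 1.87, SE 0.23, edgeR adjusted p = 0.00273). The treated libraries were within 1 CPM of each other and its call held in all 16 settings. The core ATPase gene smc4 rose from 3.10 ± 0.748 to 10.0 ± 1.09 CPM (log2 1.69, edgeR adjusted p = 0.00548), with an adjusted p of 0.0502 without vehicle replicate 2. The topoisomerase gene top2a was at 3.53, 2.34 and 3.09 CPM in vehicle and 12.3, 9.59 and 9.58 CPM at 1 mM (log2 1.81, adjusted p = 0.0162), and its call was lost when any 1 vehicle library was left out. Of 16 spindle motor and cytokinesis genes 6 passed, among them the kinesin kif15 (log2 1.92), the contractile ring gene anln (1.88) and the separase gene espl1 (1.47).

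In the DNA repair list 5 of 56 tested members were called higher and 0 lower by edgeR, 9 and 1 by DESeq2 and 9 and 1 by limma voom. Over all tested genes these tests called 0.889%, 2.5% and 2.3% higher and 0.0954%, 0.519% and 0.608% lower. Of the 56, 22 had an unadjusted p under 0.05, 19 higher and 3 lower, against 11.6% of all tested genes. By edgeR 3 were higher without 1 mM replicate 3. The median log2 change with all libraries was 0.21. Among the 5 were fanci (log2 2.48) and fancd2 (1.42) of the Fanconi pathway, the recombination gene rad54l (2.2) and the glycosylase neil3 (2.63). In vehicle neil3 was at 0.11, 0.26 and 0.498 CPM, in part under what the count filter asks for, so the metronidazole libraries carried it into the test. It missed without 1 mM replicate 3 (edgeR adjusted p = 0.0509). The gene fanci (ENSDARG00000026224) was at 0.602, 0.468 and 1.42 CPM in vehicle and at 4.26, 5.09 and 4.67 CPM at 1 mM, with no overlap (edgeR adjusted p = 0.0122). Without vehicle replicates 1, 2 and 3 the count of called members was 0, 0 and 3, and it was 3 and 1 without 1 mM replicates 1 and 2.

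These were whole livers, and a change in the number of dividing cells and a change in RNA per cell cannot be told apart in bulk samples. The 18 hepatocyte markers summed to 147871 to 160459 CPM in vehicle and 146448 to 190801 CPM at 1 mM, led by transferrin, tfa, at 35059 ± 2190 and 38608 ± 5961 CPM, so the tissue label is borne by its markers in every library. The neighbouring exocrine pancreas contributed to all libraries, with 28 markers summing to 10031 to 21093 CPM in vehicle and 7368 to 22070 CPM at 1 mM, and 0 of the 28 were called by edgeR, DESeq2 or limma voom and 0 had an unadjusted p under 0.05. The ranges of these sums overlapped. Of 20 macrophage markers 0 were called by those 3 tests and 2 had an unadjusted p under 0.05, their sum being 77.8 to 95.3 CPM in vehicle and 97.9 to 106 CPM at 1 mM. Of 7 lymphocyte markers 0 were called and 0 had an unadjusted p under 0.05, at 4.71 to 6.50 and 4.79 to 7.17 CPM. The hepatic stellate and fibroblast markers summed to 282 to 286 CPM in vehicle and 316 to 378 CPM at 1 mM, with 16 of 18 changes positive, and the kidney and swim bladder markers to 180 to 193 and 201 to 241 CPM, with 10 of 13 positive. In both lists edgeR called 0, with 1 and 4 at an unadjusted p under 0.05, DESeq2 called 1 in each, and limma voom called 0 and 1. The sums of these 2 lists and of the macrophage markers did not overlap between the groups, and their part in the cell cycle result was not tested. The endocrine pancreas markers summed to 5.67, 49.7 and 38.5 CPM in vehicle and 13.8, 0.877 and 1.08 CPM at 1 mM, with 0 of 11 called and 5 lower at an unadjusted p under 0.05. Of these 11 markers 0 had a positive change, with a median log2 change of -1.90. Without 1 mM replicate 1 edgeR called 1 of them lower. For every list of this paragraph, the share of all tested genes with an unadjusted p under 0.05 was 11.6%.

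The same genes in the 10 mM libraries are given side by side, since the comparisons share libraries. The replication list summed to 194, 203 and 246 CPM at 10 mM, within or near the vehicle range of 199 to 264 CPM and below every 1 mM library. Its median log2 change was -0.21 for 10 mM against vehicle, with 0 of 59 called higher (9.74% of all genes) and 1 lower (7.43%). For 10 mM against 1 mM the median was -1.54, with 46 members lower (9.41% of all genes) and 0 higher (9.39%). Without 1 mM replicate 3 it was -1.38, with 42 lower and 0 higher (23.5% of all genes in either direction). The mitosis list summed to 79.1, 65.1 and 99.3 CPM at 10 mM. These sums lay above every vehicle library (50.7 to 59.9 CPM) and below every 1 mM library (143 to 180 CPM). Its median was 0.48 for 10 mM against vehicle, with 4 of 57 higher (9.74% of all genes) and 0 lower (7.43%). For 10 mM against 1 mM its median was -1.18, with 22 lower (9.41%) and 1 higher (9.39%), or 17 and 1 without 1 mM replicate 3. As an example, mcm5 was at 5.07 ± 0.426 CPM and pcna at 16.1 ± 2.97 CPM at 10 mM, while cdk1 was at 1.48 ± 0.738 CPM, between its vehicle and 1 mM levels.

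A smaller group was the unfolded protein response, by which cells raise the folding capacity of the endoplasmic reticulum. Of 44 tested genes 6 were called higher and 0 lower, 4 without 1 mM replicate 3, and the median log2 change was 0.26. The lumenal chaperone BiP, hspa5 (ENSDARG00000103846), was at 36.6, 25.7 and 36.3 CPM in vehicle and at 55.4, 107 and 103 CPM at 1 mM (log2 1.43, SE 0.25, edgeR adjusted p = 0.0226). The groups did not overlap, though 1 mM replicate 1 was lower than the other treated libraries. Its co-chaperone hyou1 (ENSDARG00000013670) was at 13, 9.68 and 10.7 CPM in vehicle and at 24.8, 22.7 and 24.6 CPM at 1 mM (log2 1.11, SE 0.20, edgeR adjusted p = 0.0236). The calcium-binding lectin chaperone calr was at 27.3 ± 0.771 CPM in vehicle and 42.6, 58.1 and 50.6 CPM at 1 mM (log2 0.89, SE 0.14, edgeR adjusted p = 0.0162). Each treated library lay above the vehicle range in all 3 genes.

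The others called were calr3a (log2 0.69), calr3b (0.93) and the disulfide isomerase pdia6 (0.77), of which calr3a and pdia6 were chosen after their values were seen. The count of called members was 0 when any 1 vehicle library or 1 mM replicate 2 was left out, and 10 without 1 mM replicate 1. DESeq2 called 10 and limma voom 8. The transcription factor genes of this response did not pass: xbp1 was at 138 ± 9.04 and 165 ± 54.6 CPM (adjusted p = 0.689), atf4a at 30.0 ± 2.65 and 32.3 ± 7.48 CPM (adjusted p = 0.869) and ddit3 at 10.9 ± 1.6 and 9.58 ± 2.54 CPM (adjusted p = 0.81). These 3 were chosen after their values were seen. In the integrated stress response list, 0 of 38 genes were called by edgeR, DESeq2 or limma voom. An unadjusted p under 0.05 was reached by 8, all of them higher and 0 lower, against 11.6% of all tested genes. Without 1 mM replicate 1 edgeR called 3 of the 38 higher.

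Apart from these groups, called genes of the lists were scattered over metabolism, blood proteins and the clock. Only 68 of the 149 higher and 3 of the 16 lower genes were in any list, and the rest were in none. The terminal complement gene c7b (ENSDARG00000057121) was at 10.6, 6.45 and 5.45 CPM in vehicle and at 37.5, 55.7 and 43.2 CPM at 1 mM. No treated library was below 3 times the highest in vehicle. The log2 change was 2.6 (SE 0.28, edgeR adjusted p = 0.0019) and held in all 17 settings, and at 10 mM its level was 326 ± 102 CPM. The blood clotting factor gene vwf, made in endothelium, rose from 1.93 ± 0.373 to 5.99 ± 1.98 CPM (log2 1.63, edgeR adjusted p = 0.0122), and missed without vehicle replicate 1 or 2. These were the only 2 of 56 complement and coagulation genes called, with or without 1 mM replicate 3. The summed endothelial markers were 307 to 326 CPM in vehicle and 251 to 352 CPM at 1 mM.

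The vitamin D 24-hydroxylase gene cyp24a1 (ENSDARG00000103277), which inactivates the hormone and is itself induced by it, was at 300, 180 and 258 CPM in vehicle and at 520, 991 and 767 CPM at 1 mM (log2 1.63, SE 0.24, edgeR adjusted p = 0.0116). It was chosen after its values were seen, as was gatm (ENSDARG00000036239), the first enzyme of creatine synthesis. That gene was at 500, 597 and 528 CPM in vehicle and at 1142, 1011 and 919 CPM at 1 mM (log2 0.92, SE 0.14, edgeR adjusted p = 0.0116). The groups did not overlap in either, and at 10 mM the levels were 2309 ± 345 and 780 ± 17.5 CPM. Without vehicle replicate 2 cyp24a1 missed the threshold, with an adjusted p of 0.0783, and gatm missed it when any 1 vehicle library was left out, with 0.0734 at most.

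**Figure D4:**
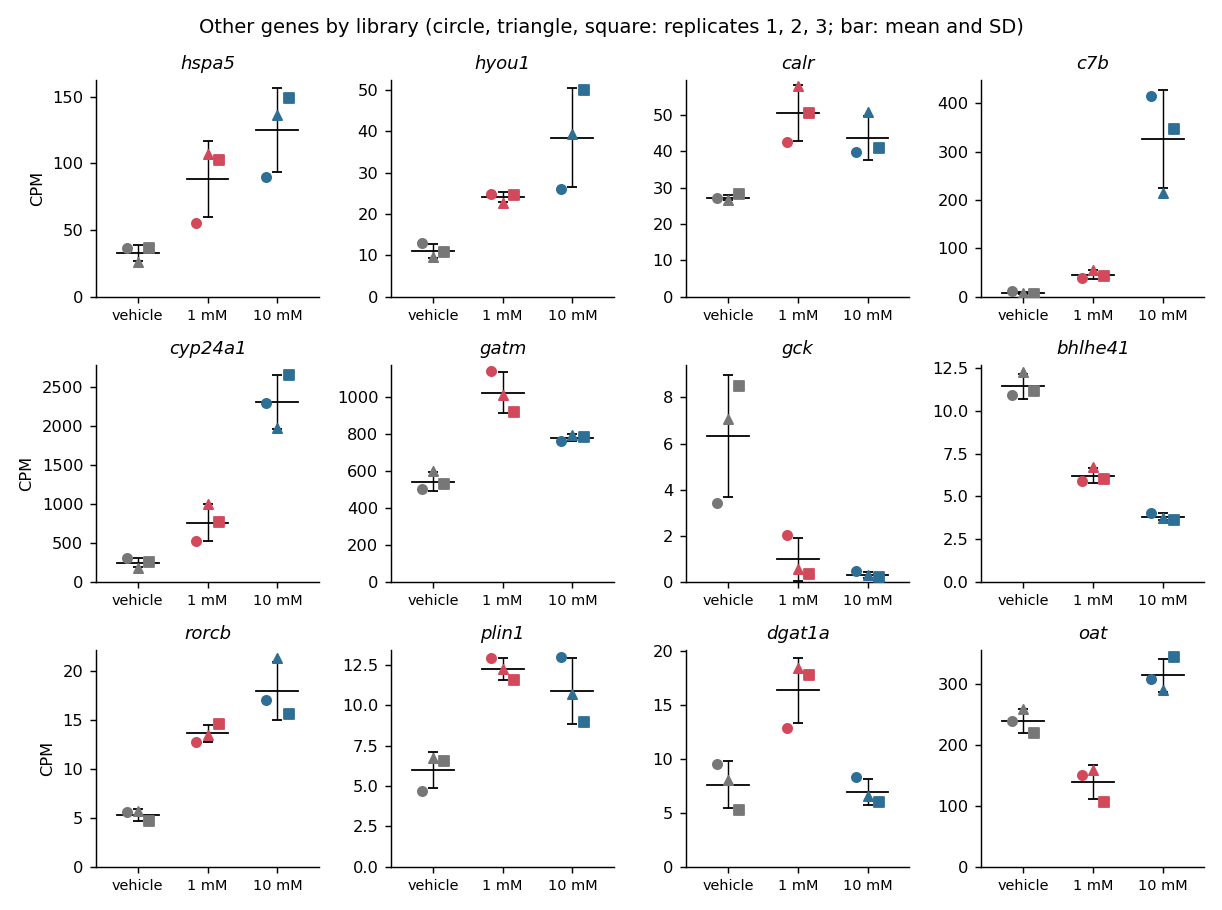
CPM (vertical axes, from 0) of 12 genes outside the cell cycle in every vehicle, 1 mM and 10 mM library; symbols mark replicate numbers and bars the mean and SD. All 12 were picked from the called genes, none of which overlap between the groups, so by that choice the 1 mM libraries lie apart from vehicle. The genes gck, bhlhe41 and oat are lower.

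Fat and fuel genes gave few edgeR calls. Over all tested genes 0.889% were called higher. Fat synthesis had 2 of 35 genes called higher, the lipid droplet coat gene plin1 (ENSDARG00000054048), at 4.71, 6.76 and 6.52 CPM in vehicle and 12.9, 12.3 and 11.6 CPM at 1 mM (log2 1.03, SE 0.18, edgeR adjusted p = 0.0226), and the triglyceride synthase dgat1a (log2 1.1, adjusted p = 0.0393). Leaving out 1 mM replicate 3, the called genes were plin1, the citrate lyase aclya and the elongase elovl5, and dgat1a missed. The median log2 change of the list was 0.27. With all libraries DESeq2 called 5 of the 35 higher (2.5% of all tested genes) and limma voom 6 (2.3%). An unadjusted p under 0.05 was reached by 14 of them, against 11.6% of all tested genes. Of 48 fatty acid oxidation genes 2 were called, the thioesterase gene ACOT12 (log2 1.46, adjusted p = 0.0162) and the uncoupling protein ucp2 (log2 1.13, adjusted p = 0.0392), and ucp2 missed without 1 mM replicate 3 (adjusted p = 0.06). Without vehicle replicate 1 or 2 none of the 4 passed, and without vehicle replicate 3 ACOT12 alone did. Of the 48 oxidation genes, DESeq2 and limma voom each called 6 higher and 1 lower, and 12 had an unadjusted p under 0.05.

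Glucokinase, gck (ENSDARG00000068006), the first step of hepatic glucose use, was at 3.40, 7.08 and 8.52 CPM in vehicle and at 2.01, 0.566 and 0.317 CPM at 1 mM. The groups did not overlap but spread widely within each, and the lowest level was in 1 mM replicate 3. The log2 change was -2.69 (SE 0.54, edgeR adjusted p = 0.0392), and -2.29 (adjusted p = 0.0475) without that library. The call was lost on leaving out 1 mM replicate 2, or any 1 library of the vehicle or 10 mM group. At 10 mM its level was 0.303 ± 0.128 CPM. It was the only member of the glycolysis list of 35 that passed, and 0 of 39 gluconeogenesis genes did, with pck1 at 165, 280 and 398 CPM in vehicle and 105, 379 and 538 CPM at 1 mM (adjusted p = 0.876). Of that list 3 had an unadjusted p under 0.05 (11.6% of all tested genes did), DESeq2 called 1 and limma voom 2.

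Among amino acid catabolism genes, the ornithine aminotransferase oat fell from 239 ± 19.7 to 139 ± 28.3 CPM (log2 -0.78, adjusted p = 0.04) and the branched-chain aminotransferase bcat1 rose from 19.0 ± 4.23 to 39.0 ± 7.64 CPM (log2 1.04, adjusted p = 0.0497), 2 of 60 members. The bcat1 call was lost without 1 mM replicate 3 (adjusted p = 0.0777). Both calls were lost when any 1 vehicle library was left out. The glucocorticoid list gave hsd11b2, which inactivates cortisol (log2 0.92, adjusted p = 0.0322), as 1 of 33, and the phase II list the sulfotransferase sult1st5 (log2 1.09, adjusted p = 0.0226) as 1 of 50. The carotenoid cleavage gene bco1 (log2 0.73, adjusted p = 0.0339) was 1 of 29 vitamin A and thyroid hormone genes. All 3 of these calls were lost on leaving out 1 mM replicate 2 or any 1 vehicle library. Over all tested genes edgeR called 0.889% higher and 0.0954% lower. At an unadjusted p under 0.05 were 13 of the 60 catabolism and 11 of the 33 glucocorticoid genes (11.6% of all tested genes). The phase II and vitamin A lists had 11 of 50 and 6 of 29. DESeq2 called 3 glucocorticoid genes higher, and limma voom 4 higher and 1 lower. For phase II these were 4 higher and 1 lower (DESeq2), and 2 and 1 (limma voom).

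In the circadian clock list edgeR called 1 gene of 44 higher and 1 lower (0.889% and 0.0954% of all tested genes). Without 1 mM replicate 3 the lower genes were 2. DESeq2 called 2 higher and 2 lower, and limma voom 3 and 4. An unadjusted p under 0.05 was reached by 20 of the 44, 7 higher and 13 lower, against 11.6% of all tested genes. The nuclear receptor gene rorcb (ENSDARG00000017780) was at 5.64, 5.72 and 4.63 CPM in vehicle and at 12.8, 13.5 and 14.6 CPM at 1 mM (log2 1.35, SE 0.16, edgeR adjusted p = 0.0026). It held in all 17 settings. The repressor bhlhe41 (ENSDARG00000041691) was at 10.9, 12.3 and 11.2 CPM in vehicle and at 5.90, 6.71 and 6.03 CPM at 1 mM (log2 -0.88, SE 0.15, edgeR adjusted p = 0.0186). All treated libraries were lower than all vehicle libraries. It missed when any 1 vehicle library or 1 mM replicate 2 was left out. The PAR bZIP factor tefa was at 93.6, 94.2 and 100 CPM in vehicle and 63.7, 64.5 and 81.2 CPM at 1 mM, and passed without 1 mM replicate 3 (log2 -0.58, adjusted p = 0.0456) but not with it (adjusted p = 0.176). The labels give no hour of collection, so the part of sampling time was not tested.

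Of the 16 lower genes, the histone gene hist2h2l (ENSDARG00000068996) was the firmest, at 20.2, 17.1 and 22.2 CPM in vehicle and at 9.28, 9.48 and 9.27 CPM at 1 mM (log2 -1.09, SE 0.14, edgeR adjusted p = 0.0028). Treated libraries were nearly equal. Its call held in all 17 settings, but histone genes have close copies and reads they could share are not resolved here. Others were the proton channel gene OTOP1 (log2 -1.14), the phosphatase ptpn11b (-0.86), the selenoprotein selenoo1 (-0.79), the calcium sensor of the endoplasmic reticulum stim1b (-0.77) and mtus1b (-0.78). Their edgeR adjusted p lay between 0.0162 and 0.044. OTOP1 missed without 1 mM replicate 3 (adjusted p = 0.0604). Without 1 mM replicate 2 hist2h2l was the only gene called lower, so all of these other calls were lost.

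**Figure D5:**
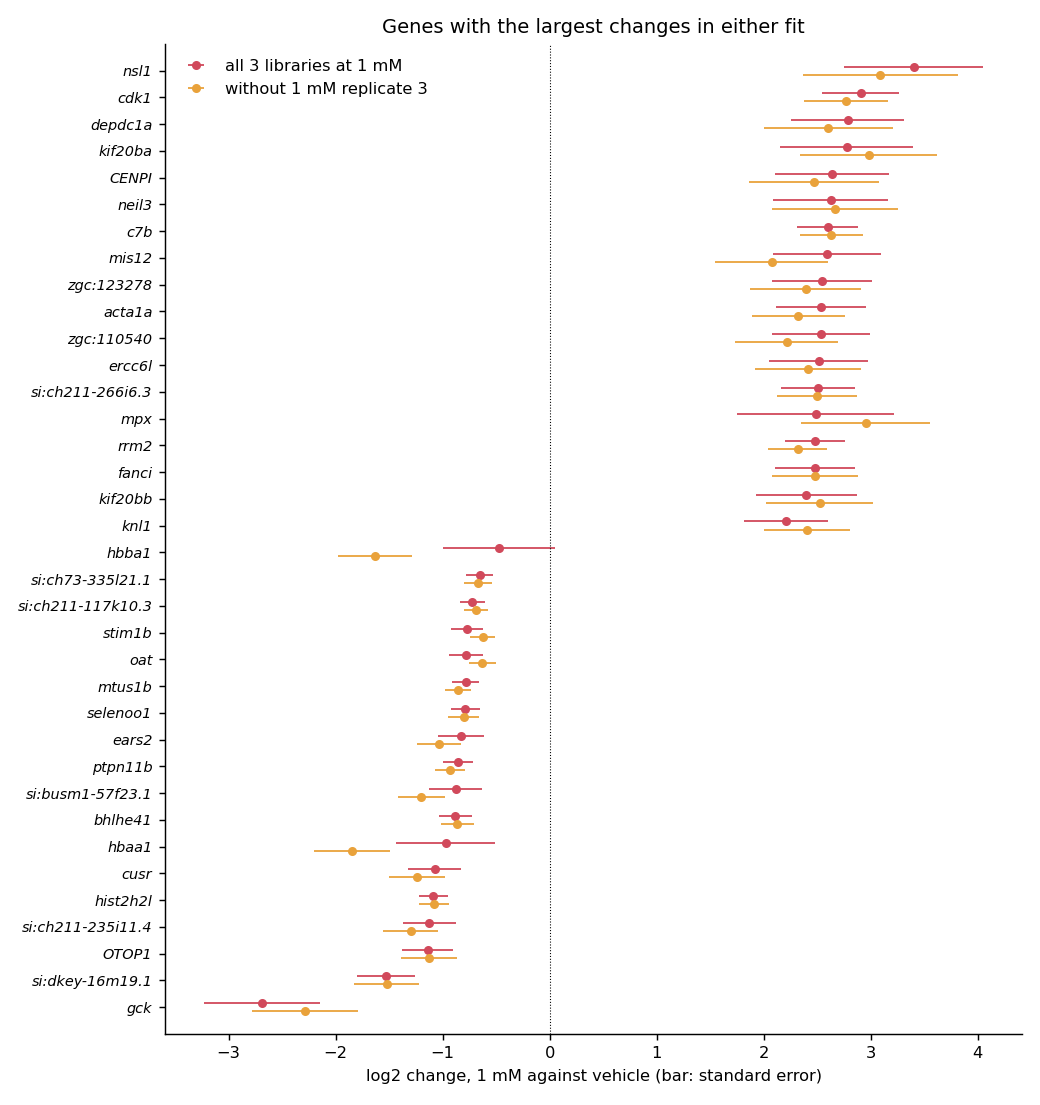
Log2 change at 1 mM against vehicle (horizontal axis, bars 1 standard error) of the genes with the largest changes in either fit, with all libraries (red) and without 1 mM replicate 3 (orange). The points of the pair lie close for cdk1, at 2.91 and 2.77, and far apart for hbba1, at -0.47 and -1.63.

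Phase I, oxidative stress and heat shock genes gave no call by edgeR with all libraries. Of 45 phase I genes 0 were called by edgeR with all libraries, 18 had an unadjusted p under 0.05 (11.6% of all tested genes did), DESeq2 called 3 higher and 2 lower, limma voom 2 and 3, and without 1 mM replicate 3 the edgeR test called cyp2k18 (log2 0.74, adjusted p = 0.0317). Of 27 genes of the Nrf2 oxidative stress response 0 were called by edgeR, DESeq2 or limma voom, and 7 had an unadjusted p under 0.05. The detoxifying reductase nqo1 was at 808, 920 and 839 CPM in vehicle and at 774, 918 and 993 CPM at 1 mM, overlapping (log2 0.06, SE 0.14, adjusted p = 0.913). The glutathione synthesis gene gclm was at 5.63 ± 0.719 and 7.92 ± 1.15 CPM (log2 0.49, SE 0.16, adjusted p = 0.206). Of 10 genes of the aryl hydrocarbon receptor battery 0 were called by the 3 tests and 2 had an unadjusted p under 0.05, with cyp1a at 613 ± 46.3 and 539 ± 44.2 CPM (adjusted p = 0.678). Of 36 heat shock genes 0 were called by edgeR, 2 higher by DESeq2 and 2 by limma voom, and 6 had an unadjusted p under 0.05. The genes nqo1, gclm, cyp1a, pck1 and tfa were chosen after their values were seen. By the edgeR test 25 of 38 pathway lists had no called member with all libraries and 23 had none in either fit, while of those 25 DESeq2 called members in 12 and limma voom in 15. The 25 lists had median log2 changes between -0.21 and 0.22.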

How the data were processed

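RNA of microdissected livers was sequenced after poly A enrichment, per the labels. The authors deposited 1 table of raw counts per gene. Among counts from 1 to 20, the share of even numbers was 75.2% (1 mM replicate 1) to 82.9% (vehicle replicate 3). The reason was not tested, so how many separate RNA fragments a low count stands for is not known. HISAT2, featureCounts and genome build GRCz11 are named in the submitters' processing notes, without versions, and strand and multimapping settings were not given in the sources used here. Genes were filtered with filterByExpr (minimum count 10, minimum total 15), scaled by TMM and tested with the edgeR (version 4.0.16, R 4.3.3) quasi-likelihood test, two-sided, in 1 fit of all 9 libraries with a mean per group, contrast 1 mM minus vehicle. Significance was a Benjamini-Hochberg adjusted p under 0.05 over all 16766 tested genes. The same genes were refitted without 1 mM replicate 3. DESeq2 (version 1.42.0) and limma voom (version 3.58.1) were alternatives. The standard error is the log2 change divided by the square root of F. Levels are CPM, mean ± SD. Replicate numbers were not used as pairs: deviations from group means of same-numbered libraries correlated at -0.07, 0.04 and -0.04. Named genes are the 12 largest passing changes per direction in either fit, the passing members of each of 38 pathway and 16 marker lists with the smallest p (at most 3, all where 5 or fewer pass), and the genes that set 1 mM replicate 3 apart. Every gene named for a large change had groups that lay apart in the fit that named it. Their separation thus follows from the choice. Of 1889 and 412 list entries 1756 and 373 matched a gene, with 80% or more matched in 37 and 14 lists and fewer in the bile acid, endothelial and exocrine pancreas lists. Members and lists were chosen with earlier results of these data known. Lanes in the column names were 8 for 10 mM replicate 3 and 7 for all others. The pipeline was tested on simulated data. Results for some genes are not reported here.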

Additional observations from a re-analysis of the deposited data

How the results depend on the processing

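The numbers of higher and lower genes, 149 and 16, became 419 and 87 with the DESeq2 test, 386 and 102 with limma voom and sample weights, and 418 and 69 without a count filter. With at least 5 CPM in 3 libraries 85 were higher, and with only the vehicle and 1 mM libraries 93. A log2 change of at least 1 left 6 lower. Leaving out a library gave 16 to 182 higher and 1 to 31 lower. Without 1 mM replicate 3 the numbers, 149 and 31, became 363 and 210 (DESeq2), 254 and 86 (limma voom), 575 and 298 (no filter), and 226 and 69 (vehicle and 1 mM libraries only). With at least 5 CPM 19 were lower, and a log2 change of at least 1 left 91 and 10. Leaving out the mitochondrial and the 20 most abundant genes gave 138 and 30. A further library left out, chosen after the data were seen, gave 25 to 70 higher and 4 to 9 lower. Deviations of same-numbered libraries were barely correlated, but 3 libraries per group cannot settle whether replicate numbers mark pairs. With the replicate block 101 genes were higher and 8 lower, and without 1 mM replicate 3 the block gave 178 and 69. For 87 named genes, 1453 comparisons with an alternative gave 0 reversed signs among called genes. In every called gene the libraries at 1 mM lay wholly apart from vehicle, so a reversal was hardly possible and this 0 is no support. A call was lost in 230 and gained in 67, and 1156 were counted as unchanged. The 1156 include genes without a call that stayed so or changed sign, while the 230 come from the called genes alone. Where an alternative changed a count, the cause was not tested, and a leave-out also fits fewer libraries. Genes near 1 CPM rest on few reads, and 3 libraries per group limit what can be called.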

Other observations

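Genes outside the lists were also higher at 1 mM, and those given here were chosen after their values were seen. Chromatin genes among them were hmga1a, from 43.4 ± 3.35 to 69.0 ± 2.65 CPM (log2 0.67, edgeR adjusted p = 0.0226), the histone chaperone subunit rbbp4 (log2 1.09, adjusted p = 0.0162), and the histone methyltransferase nsd2, from 1.44 ± 0.0641 to 5.06 ± 1.17 CPM (1.81, adjusted p = 0.0115). The cohesin acetyltransferase esco2 (1.77, adjusted p = 0.0232) and cdca7a (2.01, adjusted p = 0.0162) were higher as well. The aquaglyceroporin gene aqp9b was at 301, 343 and 319 CPM in vehicle and 468, 520 and 499 CPM at 1 mM (0.63, adjusted p = 0.0392).

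Blood cell genes varied between libraries. The embryonic globin gene hbae3 was at 57.2, 63.4 and 74.0 CPM in vehicle and 120, 110 and 208 CPM at 1 mM (log2 1.17, edgeR adjusted p = 0.0257). Its call was lost when any 1 vehicle library was left out. The globin gene hbaa1 was at 39.7, 54.0 and 24.5 CPM in vehicle and 9.97, 12 and 38.5 CPM at 1 mM, and was called lower without 1 mM replicate 3 (-1.85, adjusted p = 0.0311) and not with it (-0.97, adjusted p = 0.449). Globin genes have near-identical copies, so their counts are uncertain. Of 21 erythrocyte markers edgeR called 1 higher with all libraries, hbae3, and 0 lower (0.889% and 0.0954% of all tested genes). Their sums overlapped, at 2347 to 3064 CPM in vehicle and 2300 to 4443 CPM at 1 mM. Of 13 neutrophil markers edgeR called 0 with all libraries, and DESeq2 and limma voom 1 each. Among these markers 8 had a positive log2 change. Their sums overlapped, at 1088, 922 and 1942 CPM in vehicle and 2285, 816 and 1349 CPM at 1 mM. These sums ranked the libraries in the same order as the exocrine pancreas sums and are not read as a measure of neutrophils. The neutrophil gene mpx was at 1.78, 4.32 and 1.54 CPM in vehicle and 6.69, 33.0 and 3.14 CPM at 1 mM, where 1 mM replicate 2 stood highest, and passed without 1 mM replicate 3 (2.95, adjusted p = 0.0355) and not with it (adjusted p = 0.158). The skeletal muscle actin gene acta1a, whose reads could be shared with other actin genes, was at 0.383, 0.416 and 0.797 CPM in vehicle and 1.53, 3.88 and 4.0 CPM at 1 mM (2.54, adjusted p = 0.0162), as 1 of 12 muscle markers called. Of the 12, 5 had a positive change, with a median log2 change of -0.03. The acta1a call was lost without vehicle replicate 1, vehicle replicate 2 or 1 mM replicate 2.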
